A study of Mus musculus with 6 samples.

Results

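The genes described here encode the heat shock chaperones of the cytosol and of the mitochondrial matrix. They were taken from a list of 10 symbols (Hspa8, Hspa1a, Hspa1b, Hsp90aa1, Hsp90ab1, Dnajb1, Hsph1, Hspd1, Hspe1 and Hspb1), looked up in the gene annotation of the array. Of these, 8 were matched, each to a single feature (transcript cluster), out of 19505 genes measured. Hspa8 and Hsp90ab1 had no match by symbol or gene ID in that annotation and are not analysed here. Expression was measured in whole cultures of B16F10, a pigmented mouse melanoma line grown in RPMI1640, with single-colour Affymetrix arrays. A compound that the labels name SQ-diEG, or di-sq, was added for 48 h to a final 2.5 µM in one group and 40 µM in another, while control cells received no compound, and 2 arrays were made per group. The line and its medium were common to all groups. Whether the arrays within a group stem from independent cultures is not labelled, so p-values measure only the spread between these arrays, which may be technical. In whole cultures, a lower level per cell and fewer expressing cells cannot be told apart. Values are log2 expression, and differences are on the same log2 scale, where 1 is a doubling.

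Heat shock proteins keep other proteins from aggregating and help them fold. In the cytosol, proteins of the HSP70 family bind unfolded stretches in cycles driven by ATP. J-domain proteins such as DNAJB1 deliver the clients and start ATP hydrolysis, and HSP110 proteins such as HSPH1 release the nucleotide. HSP90 takes over clients that are nearly folded, many of them kinases and hormone receptors. Small heat shock proteins such as HSPB1 hold unfolded proteins without using ATP. In mitochondria, HSPD1 (HSP60) forms a barrel in which imported proteins fold, and HSPE1 (HSP10) is its lid. Under proteotoxic stress, heat shock factor 1 (HSF1) binds heat shock elements, repeats of GAA and TTC in alternation, and switches on many of these genes. Hspa1a, Hspa1b and Dnajb1 are among the genes most often read as signs of that response.

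Promoter windows of 300 bases (250 before and 50 after an annotated start) were found for 7 of the 8 measured genes in RefSeq (GRCm38.p6). Hsp90aa1 was the gene without one. The windows are shown because HSF1 is known to act through heat shock elements, and not every window held a match. Patterns of 2 lengths were searched on both strands. The shorter held 2 units (GAANNTTC or TTCNNGAA) and occurred in 15.1% of 32851 windows of this length. The longer held 3 units (GAANNTTCNNGAA or TTCNNGAANNTTC, which each contain both shorter patterns) and occurred in 0.603%. In any of their 10 windows, the shorter pattern was present for 6 of the 7 genes and the longer for 3, namely Hspd1, Hspe1 and Hsph1. These are counts of genes, whereas the shares above are of windows. Hspd1 and Hspe1 lie head to head, with 215 bases between their starts, and share an element of 4 units within that stretch (capitals), from -89 to -72 counted from the Hspe1 start and from -144 to -127 counted from the Hspd1 start. A further annotated Hspd1 start lies 95 bases past the Hspe1 start, and its window held neither pattern. The shared stretch is chr1:55087933-55088147, given on the plus strand, which is that of Hspe1.
Hspd1-Hspe1: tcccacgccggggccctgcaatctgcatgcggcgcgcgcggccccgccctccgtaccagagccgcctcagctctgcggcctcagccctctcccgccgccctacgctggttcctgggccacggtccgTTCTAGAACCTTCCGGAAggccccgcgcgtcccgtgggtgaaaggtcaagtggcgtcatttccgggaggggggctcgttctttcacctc

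Hspa1a and Hspa1b are neighbouring copies on the minus strand of chromosome 17. Their windows were identical at 296 of 300 bases, and around the 2-unit match (capitals, from -104 to -97 counted from either start) the stretches chr17:34972232-34972281 and chr17:34959314-34959363 had the same letters. Hspb1, on the plus strand, held a pair of 2-unit matches (chr5:135887791-135887840, capitals). Hsph1, on the minus strand, held its 3-unit match 16 to 28 bases after the start of one annotated transcript and 37 to 49 after that of the other (chr5:149636280-149636309, capitals). Neither window of Dnajb1 held either pattern. A match is a description of letters, and binding was not measured.
Hspa1a: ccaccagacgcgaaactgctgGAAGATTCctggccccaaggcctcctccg
Hspa1b: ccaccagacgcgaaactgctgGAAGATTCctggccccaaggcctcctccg
Hspb1: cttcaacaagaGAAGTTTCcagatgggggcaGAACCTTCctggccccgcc
Hsph1: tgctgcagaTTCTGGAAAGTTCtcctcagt

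**Figure D1:**
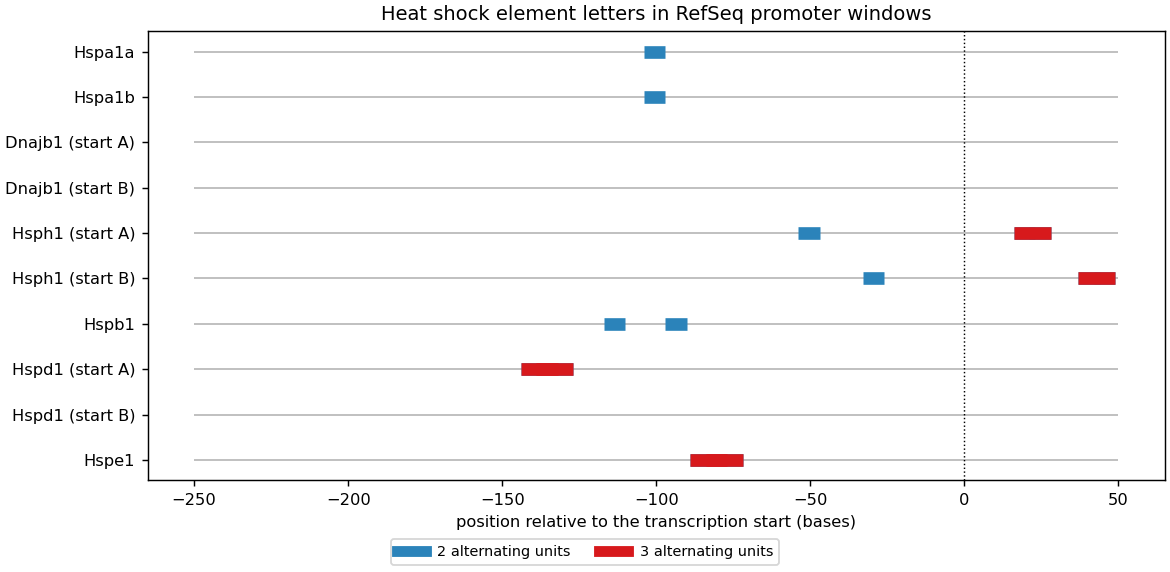
Positions of the 2-unit (blue) and 3-unit (red) heat shock element patterns in the RefSeq promoter windows, in bases from the transcription start (dotted line); genes with several annotated starts have a line for each. The 3-unit pattern appears for Hsph1, Hspd1 and Hspe1, before the start in the chaperonin pair and after it in Hsph1.

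Levels were judged against negative control features, whose 95th percentile lay between 9.80 and 10.06 on the 6 arrays (mean 9.94), and 78.7% of all genes had a mean below that. Of the heat shock genes, Hsp90aa1, Hspd1 and Hspe1 lay above it on 6 of 6 arrays and Hsph1 on 4, the treated ones. Dnajb1, Hspa1a, Hspa1b and Hspb1 lay below it on all 6. Replicate 1 at 2.5 µM and replicate 1 at 40 µM differed from the other arrays in their spiked-in controls. Their hybridisation controls averaged 10.43 and 10.30 against 10.82 to 11.15, and their poly-A controls 5.65 and 5.63 against 6.35 to 7.42. Replicate 2 at 40 µM was the highest array in both, at 11.15 and 7.42. The arrays of untreated cells had 10.86 and 10.90 for hybridisation and 6.35 and 6.39 for poly-A. Fits without both low arrays, and with them as a block, are given below. Beyond these fits, the part of the spiked-in differences in the results was not tested, and values are given array by array. All 7 melanocyte markers (Mitf, Sox10, Tyr, Tyrp1, Dct, Pmel and Mlana) lay between 12.67 and 19.21. None of the 5 fibroblast, 5 leukocyte, 4 keratinocyte and 4 endothelial markers measured had a mean above 9.94, their highest single value being 7.14.

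**Figure D2:**
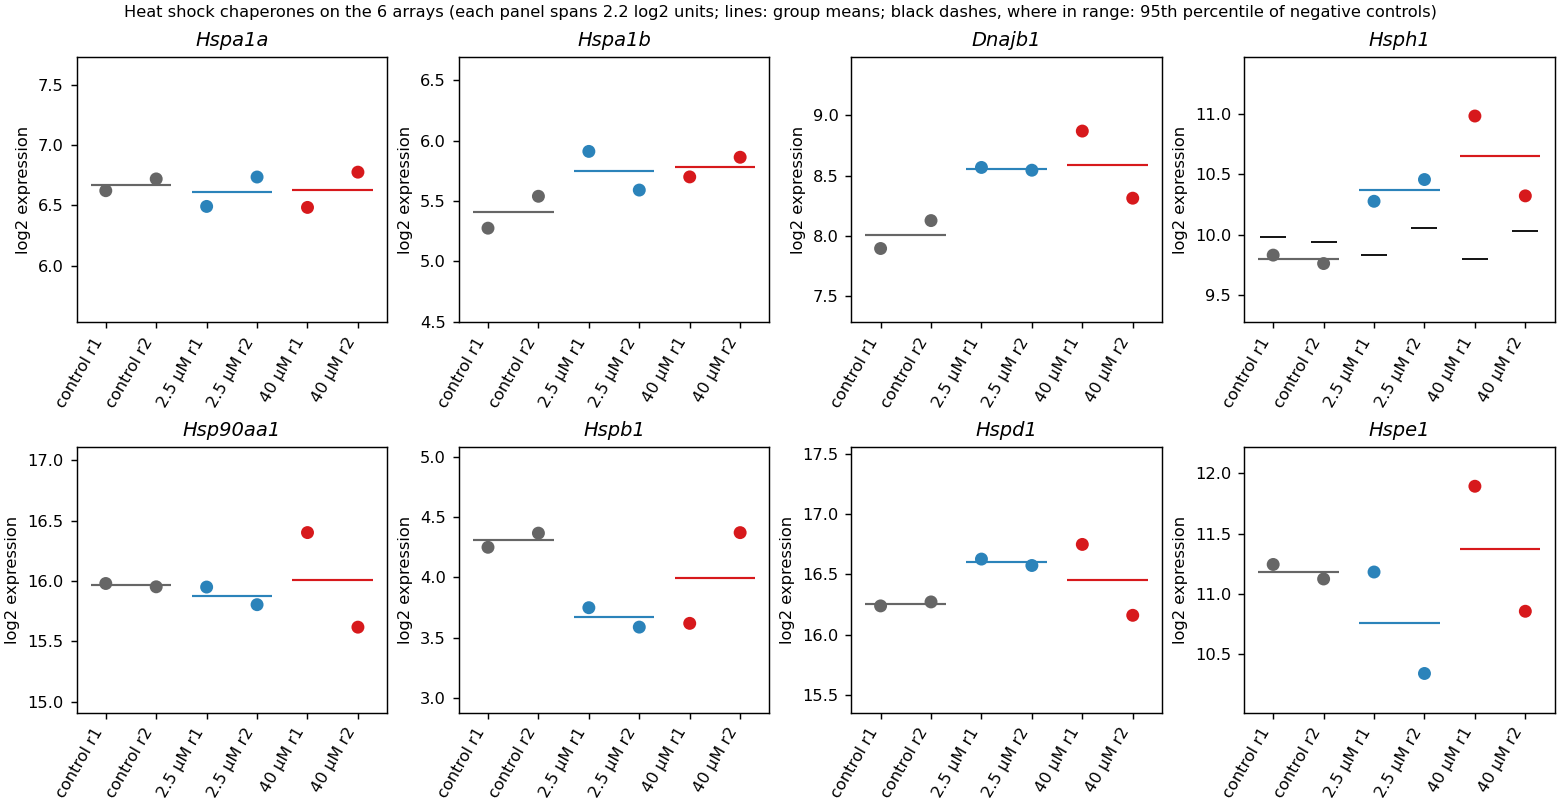
Log2 expression of the 8 genes on each array (points), with group means (lines); every panel spans 2.2 log2 units, and black dashes give the 95th percentile of the negative controls where it falls in range. Hsph1 crosses that mark between the control and the treated arrays, and the 2 arrays at 40 µM lie apart for Hsph1, Hsp90aa1, Hspd1, Hspe1 and Hspb1.

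The stress-inducible HSP70 genes stayed near the background in all groups. Hspa1a was at 6.62 and 6.72 in control, at 6.49 and 6.74 at 2.5 µM and at 6.48 and 6.78 at 40 µM. The groups overlapped completely, and between 57.7% and 64.0% of the negative control features lay below it. Its log2 difference was -0.04 at 40 µM (95% interval from -0.58 to 0.50; limma adjusted p = 0.951) and -0.06 at 2.5 µM (from -0.59 to 0.48; adjusted p = 0.949). The first became 0.10 without 40 µM replicate 1 and 0.01 without control replicate 2, and the other became 0.06 without 2.5 µM replicate 1.

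Hspa1b, its neighbour, was at 5.28 and 5.54 in control, at 5.91 and 5.59 at 2.5 µM and at 5.70 and 5.86 at 40 µM. All 4 treated arrays were above both controls, yet 34.7% to 48.6% of the negative control features were below these values, so the difference is between background values. It amounted to 0.37 at 40 µM (from -0.18 to 0.93; limma adjusted p = 0.529) and 0.34 at 2.5 µM (from -0.21 to 0.90; adjusted p = 0.657). Since the copies are so alike, how far their features read each other's transcripts is uncertain.

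Dnajb1 and Hsph1 work with HSP70, and neither passed the test. Dnajb1, the J-domain partner of the inducible HSP70, was at 7.90 and 8.13 in control, at 8.57 and 8.55 at 2.5 µM and at 8.87 and 8.31 at 40 µM. No treated array overlapped the controls, and the 2 arrays at 2.5 µM differed by only 0.02. At 40 µM the spread was wider, and replicate 2 lay nearer to the controls than any other treated array. The means were 8.01 ± 0.16, 8.56 ± 0.02 and 8.59 ± 0.39 (SD, n = 2), a log2 difference of 0.54 at 2.5 µM (from -0.05 to 1.13; limma adjusted p = 0.537) and 0.58 at 40 µM (from -0.01 to 1.17; adjusted p = 0.417). Between 81.3% and 90.7% of the negative control features lay below Dnajb1.

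Hsph1, the HSP110 exchange factor, had the largest difference from control among the 8 genes at 40 µM. It was at 9.83 and 9.76 in control, at 10.28 and 10.46 at 2.5 µM and at 10.98 and 10.32 at 40 µM. The controls lay just under the background mark of their arrays and the 4 treated arrays above theirs. Group means were 9.80 ± 0.05, 10.37 ± 0.13 and 10.65 ± 0.47 (SD, n = 2). The log2 difference was 0.86 at 40 µM with a standard error of 0.26 (1.81-fold, from 0.25 to 1.46), and its adjusted p over all genes was 0.349 (limma). At 2.5 µM it was 0.57 (1.49-fold, from -0.03 to 1.18; adjusted p = 0.529). The high mean at 40 µM came from replicate 1, which was 1.19 above the control mean against 0.53 for replicate 2. The latter was no higher than 2.5 µM replicate 2, at 0.66.

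Hsp90aa1, the inducible cytosolic HSP90, did not separate the groups at 40 µM. It was at 15.98 and 15.95 in control, at 15.95 and 15.80 at 2.5 µM and at 16.40 and 15.62 at 40 µM. The 2 arrays at 40 µM thus lay on opposite sides of the controls, 0.78 apart, while both arrays at 2.5 µM were below them, replicate 1 only barely. The log2 difference was 0.04 at 40 µM (from -0.56 to 0.65; limma adjusted p = 0.954), and -0.35 without 40 µM replicate 1. At 2.5 µM it was -0.09 (from -0.69 to 0.52; adjusted p = 0.929). At least 99.4% of the negative control features lay below it on each array.

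Hspb1, the small heat shock protein, was at 4.25 and 4.37 in control, at 3.75 and 3.59 at 2.5 µM and at 3.62 and 4.37 at 40 µM. Both arrays at 2.5 µM and replicate 1 at 40 µM were below the controls, and 40 µM replicate 2 was level with the higher one. Only 7.97% to 17.8% of the negative control features lay below these values, so they carry no clear signal. The log2 difference was -0.64 at 2.5 µM (from -1.30 to 0.02; limma adjusted p = 0.523) and -0.31 at 40 µM (from -0.97 to 0.35; adjusted p = 0.645), and the latter became 0.06 without 40 µM replicate 1.

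The mitochondrial chaperonin genes, which share the stretch with the 4-unit element, gave mean differences of opposite sign at 2.5 µM, neither of which passed and of which that of Hspe1 rested on 1 array. Hspd1 was at 16.24 and 16.27 in control, at 16.63 and 16.57 at 2.5 µM and at 16.75 and 16.16 at 40 µM. At 2.5 µM both arrays were above the controls and close to each other, and at 40 µM one was above and one below. Hspd1 means were 16.25 ± 0.02, 16.60 ± 0.04 and 16.45 ± 0.42 (SD, n = 2), a log2 difference of 0.35 at 2.5 µM (from -0.15 to 0.84; limma adjusted p = 0.618) and 0.20 at 40 µM (from -0.30 to 0.70; adjusted p = 0.704). The latter became -0.09 without 40 µM replicate 1 and 0.49 without replicate 2.

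Hspe1, the lid, was at 11.25 and 11.12 in control, at 11.18 and 10.34 at 2.5 µM and at 11.89 and 10.86 at 40 µM. Replicate 1 lay above replicate 2 at either dose, by 0.84 and 1.04, gaps that exceed the differences between group means. The log2 difference was -0.42 at 2.5 µM (from -1.36 to 0.51; limma adjusted p = 0.747) and 0.19 at 40 µM (from -0.74 to 1.12; adjusted p = 0.854), and the latter became -0.33 without 40 µM replicate 1. The difference at 2.5 µM rested on replicate 2, since it was -0.002 without that array and -0.84 without replicate 1. Set against the control means, the change of Hspd1 exceeded that of Hspe1 by 0.37 and 1.16 on replicates 1 and 2 at 2.5 µM. At 40 µM it differed from it by -0.22 and 0.23. Whether the genes changed unequally was not tested.

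**Figure D3:**
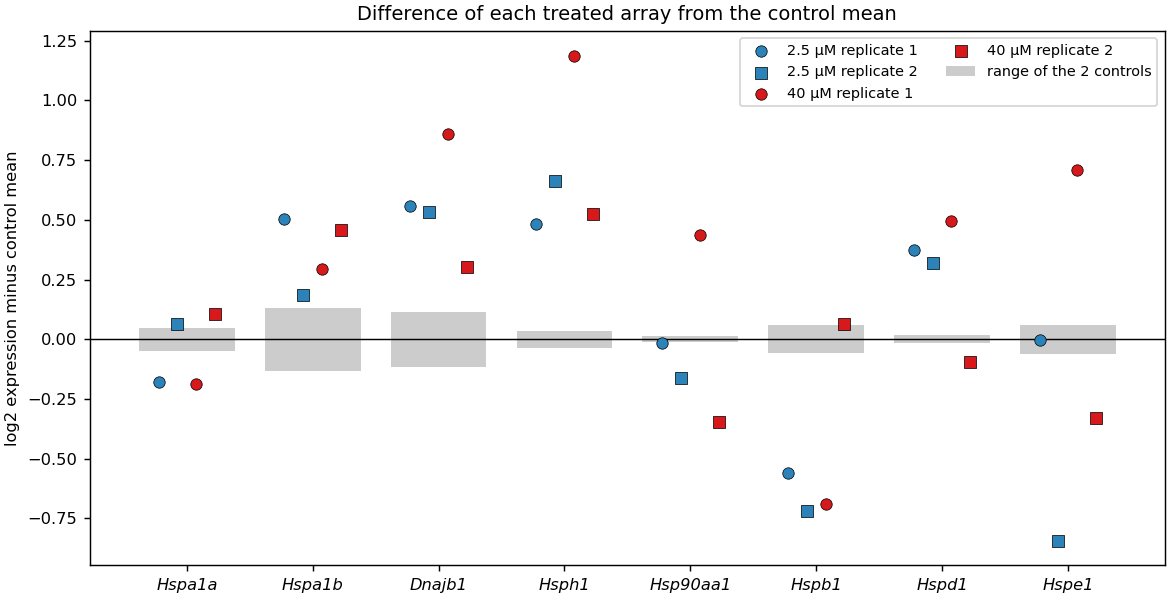
Log2 expression on each treated array minus the control mean, with the range of the 2 controls in grey; circles are replicate 1 and squares replicate 2. Hspa1b, Dnajb1 and Hsph1 lie above the grey range on all 4 treated arrays, and the 40 µM arrays (red) lie on opposite sides of 0 for Hspa1a, Hsp90aa1, Hspb1, Hspd1 and Hspe1.

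The comparison of 40 µM with control asked what the higher dose changed. Of the 8 genes, 6 had a higher mean, with a median log2 difference of 0.19, against -0.01 over all genes. None passed the test (limma, adjusted p of at least 0.349), and 0% of all genes did. At an unadjusted p below 0.05, Hsph1 alone was higher and none was lower, where 5.18% of all genes were higher and 6.86% lower. Both arrays were above both controls for 3 of the 8 (Hspa1b, Dnajb1 and Hsph1), as they were for 22.2% of all genes, and below both for none, against 26.3%. The outcome depended on 1 array. The median was 0.08 without 40 µM replicate 1. Without 40 µM replicate 2 the median was 0.46, and Hsph1 (1.19, adjusted p = 0.0207), Dnajb1 (0.86, adjusted p = 0.0462) and Hspd1 (0.49, adjusted p = 0.0447) passed, while 11.5% of all genes passed in that fit. It kept only 1 array at 40 µM, whose spread is assumed to equal that of the other groups.

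The 2.5 µM dose was compared with control in the same way. Higher and lower means were equally frequent, at 4 each, with a median of 0.14 against 0.01 over all genes. None of the 8 passed (limma, adjusted p of at least 0.523) and neither did any other gene (0%). None reached an unadjusted p below 0.05 either, where 4.24% of all genes were higher and 5.38% lower. Both arrays lay above both controls for 4 genes (Hspa1b, Dnajb1, Hsph1 and Hspd1; 27.1% of all genes) and below for 2 (Hsp90aa1 and Hspb1; 25.9%). The 2 comparisons share their control arrays. On all 4 treated arrays 3 of the 8 genes were above both controls, against 13.0% of all genes, and none was below, against 14.8%. The median became 0.07 without control replicate 1.

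Between the doses, 40 µM minus 2.5 µM, the arrays overlapped for all 8 genes. No overlap was seen for 12.4% of all genes in the direction of higher at 40 µM and for 16.3% in that of lower. The median was 0.08, against -0.003 over all genes, with 7 genes higher at 40 µM. None reached an unadjusted p below 0.05 (2.34% of all genes were higher and 3.28% lower), and none passed (limma, adjusted p of at least 0.868; 0% of all genes). The interval for Hspe1, from -0.32 to 1.55 around 0.61, was the widest, and that for Hspd1, from -0.65 to 0.35 around -0.15, the narrowest. The difference between the doses was also taken between the pair of arrays low in spiked-in controls and between the other pair. Its sign differed between these pairs for each gene except Hspe1 (0.71 and 0.52). Hsph1 gave 0.71 in the low pair and -0.14 in the other, and Dnajb1 0.30 and -0.23. The median became 0.02 without 40 µM replicate 1, 0.23 without 40 µM replicate 2 and 0.19 without 2.5 µM replicate 1, and it turned to -0.05 without both low arrays.

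**Figure D4:**
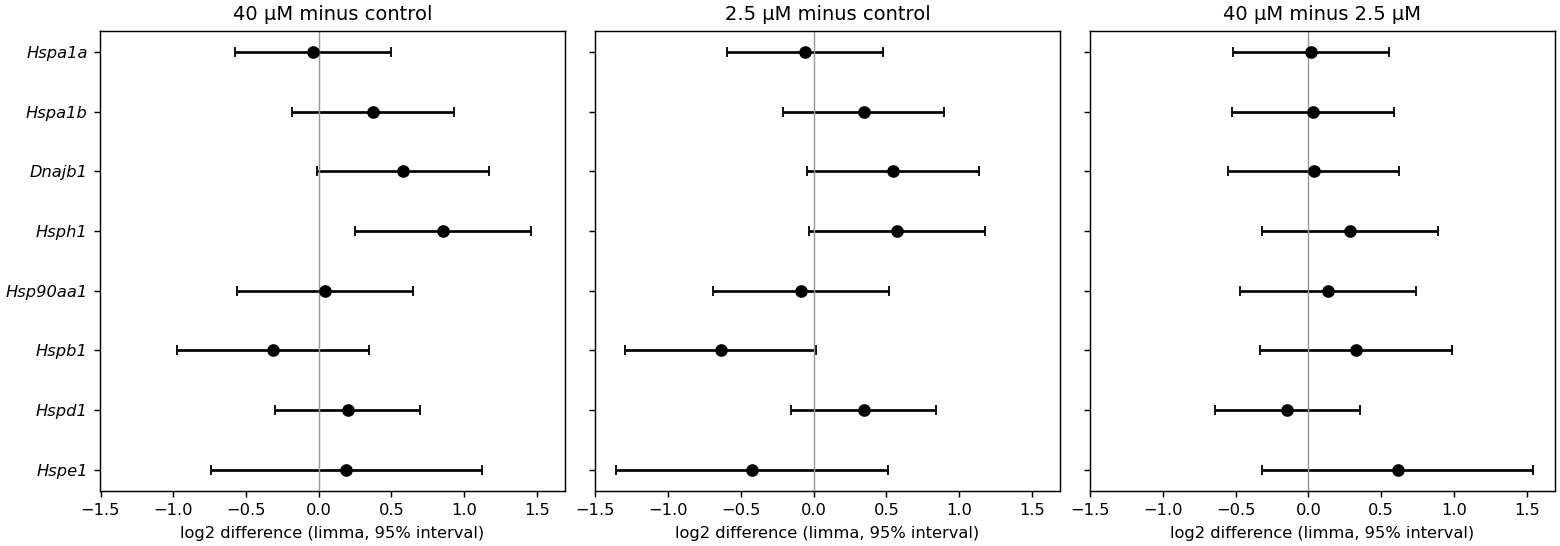
Log2 difference of the 8 genes in each comparison (points) with its 95% interval from limma (bars). The interval of Hsph1 at 40 µM, from 0.25 to 1.46, is the only one shown that does not include 0.

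With both arrays that were low in spiked-in controls left out, more genes passed. Each dose kept only its replicate 2, which at 40 µM was the array highest in spiked-in controls. The error then came from the 2 controls alone. Their gap had a median of 0.12 over all genes, against 0.27 at 2.5 µM and 0.37 at 40 µM. For 40 µM against control, Hsph1 (0.53, limma adjusted p = 0.0117), Hsp90aa1 (-0.35, adjusted p = 0.00751) and Hspe1 (-0.33, adjusted p = 0.0491) passed, the last 2 as lower, in a fit where 19.2% of all genes passed. For 2.5 µM, Hsph1, Dnajb1 and Hspd1 passed as higher and Hspe1 and Hspb1 as lower, where 20.5% of all genes passed. Between the doses Hspe1 and Hspb1 passed as higher and Hspd1 as lower at 40 µM, where 15.2% did. Dnajb1, Hspa1b and Hspb1 lay below the background mark on all arrays. Hsph1, Dnajb1 and Hspa1b kept their direction against control in each fit that included them, at both doses. For these genes every treated array was above both controls, so leaving out arrays could not turn the sign.

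The arrays at 40 µM lay further apart than those of the other groups, a description with no test. The gap between the 2 arrays of a group had a median over the 8 genes of 0.11 in control, 0.17 at 2.5 µM and 0.62 at 40 µM, where all genes gave 0.37. For Dnajb1, Hsph1, Hsp90aa1, Hspd1 and Hspe1, replicate 1 at 40 µM was the higher array, by 0.56 to 1.04, and for Hspb1 the lower, by 0.75. Hspa1a and Hspa1b differed by -0.29 and -0.16. Over all genes, too, 40 µM replicate 1 had the wider spread, with an interquartile range of 5.43 against 4.94 on replicate 2. It had 4566 genes above its background mark, against 3939 on replicate 2. At 2.5 µM, replicate 1 also had the wider interquartile range, 5.20 against 4.94, and 4362 genes above its mark against 3940. How far these array-wide differences make up the gaps of the 8 genes was not tested.

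The rest of the chaperone system was read from 7 lists with 73 genes, of which 68 were measured and 34 had a mean above background. None of the 68 passed in any of the 3 comparisons (limma). At 40 µM, 43 of the 68 were higher, with a median log2 difference of 0.12, and in 22 both arrays lay above both controls (22.2% of all genes), in 14 below (26.3%). An unadjusted p below 0.05 was reached by 3 higher genes and 1 lower, where 5.18% of all genes were higher and 6.86% lower. At 2.5 µM, against the same control arrays, 45 were higher, with a median of 0.12. Both arrays lay above both controls for 26 (27.1% of all genes) and below for 8 (25.9%), and 3 higher genes and 1 lower had an unadjusted p below 0.05 (4.24% and 5.38% of all genes). On all 4 treated arrays 11 of the 68 lay above both controls (13.0% of all genes) and 3 below (14.8%).

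The list of heat shock factors held 4 measured genes, the factors Hsf2, Hsf4 and Hsf5 and the factor-binding protein Hsbp1, but not Hsf1. Hsf2, which can pair with HSF1, was the one above background. The factors ranged from -0.46 to 0.03 at 40 µM and Hsbp1 was at 0.59, with a median of -0.04 over the list, whose genes are named after their values were seen. Among 7 other HSP70 and HSP110 genes the median was 0.11 at 40 µM and 0.24 at 2.5 µM. Hspa4l, a relative of Hsph1 in the HSP110 family, was at 7.33 and 7.10 in control, at 8.17 and 7.89 at 2.5 µM and at 8.80 and 7.95 at 40 µM. All its treated arrays were higher than the controls, as with Hsph1, but all its values were below the background mark. Its difference was 1.15 at 40 µM and 0.81 at 2.5 µM (limma adjusted p = 0.349 and 0.506), and it is named here after its values were seen. Hspa4, of the same list, had a mean above background and is also named after its values were seen. It was at 14.82 and 14.95 in control, at 15.22 and 15.04 at 2.5 µM and at 15.24 and 14.76 at 40 µM. Its arrays at 40 µM lay on either side of the controls, with a difference of 0.11 (limma adjusted p = 0.83). The 11 other J-domain genes had medians of -0.05 at 40 µM and 0.04 at 2.5 µM. Among the 8 exchange factors and HSP70 partners, 4 were higher at 40 µM and 4 lower (median 0.06). Bag3, an exchange factor and a much used HSF1 target, was at 8.44 and 8.29 in control, at 8.27 and 7.87 at 2.5 µM and at 8.43 and 8.26 at 40 µM. The arrays at 2.5 µM were below both controls and those at 40 µM overlapped them, all below background. Bag3 was also picked after its values were seen.

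The cochaperones of HSP90 numbered 14, with 10 higher at 40 µM and a median of 0.20. Sugt1, an adaptor of HSP90, was at 9.90 and 9.82 in control, at 11.06 and 10.21 at 2.5 µM and at 11.33 and 10.33 at 40 µM. The treated arrays were all higher, and replicate 1 stood far above replicate 2 at both doses. Both controls lay below the background mark, so its mean passed that mark only through the treated arrays. Ttc4 binds HSP90 through its tetratricopeptide repeats. It was at 10.74 and 10.63 in control, at 9.56 and 9.96 at 2.5 µM and at 9.84 and 10.25 at 40 µM. All its treated arrays lay below the controls, and those at 2.5 µM also below their background marks (9.83 and 10.06). Its log2 difference was -0.93 at 2.5 µM and -0.64 at 40 µM (limma adjusted p = 0.479 and 0.382), and that of Sugt1 at 40 µM was 0.97 (adjusted p = 0.408). None of the 8 other small heat shock proteins lay above background, and their differences at 40 µM ranged from -0.59 to 1.02. Of 16 other mitochondrial chaperones and proteases, 13 were higher at either dose, with medians of 0.21 at 2.5 µM and 0.19 at 40 µM. On all 4 treated arrays, 4 of the HSP90 cochaperones lay above both controls and 2 below. In the mitochondrial list 4 genes lay above and 0 below, where all genes gave 13.0% and 14.8%. These 4, named after their values were seen, were Trap1 (the mitochondrial HSP90), Dnajc19 and Grpel1 (partners of mitochondrial HSP70 in import) and the protease subunit Clpp, the last with a mean below background. Each was higher on replicate 1, the array low in spiked-in controls, than on replicate 2 at either dose. Hspa9, the mitochondrial HSP70 itself, was at 14.54 and 14.56 in control, at 14.45 and 14.48 at 2.5 µM and at 14.63 and 14.36 at 40 µM, and is likewise given after seeing its values. The remaining genes with an unadjusted p below 0.05 were all below background, namely Hscb (higher at 40 µM), Spg7 and Hspb9 (higher at 2.5 µM), and, between the doses, Dnaja2 (higher at 40 µM), Hsf4 and Hspb7 (lower).

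**Figure D5:**
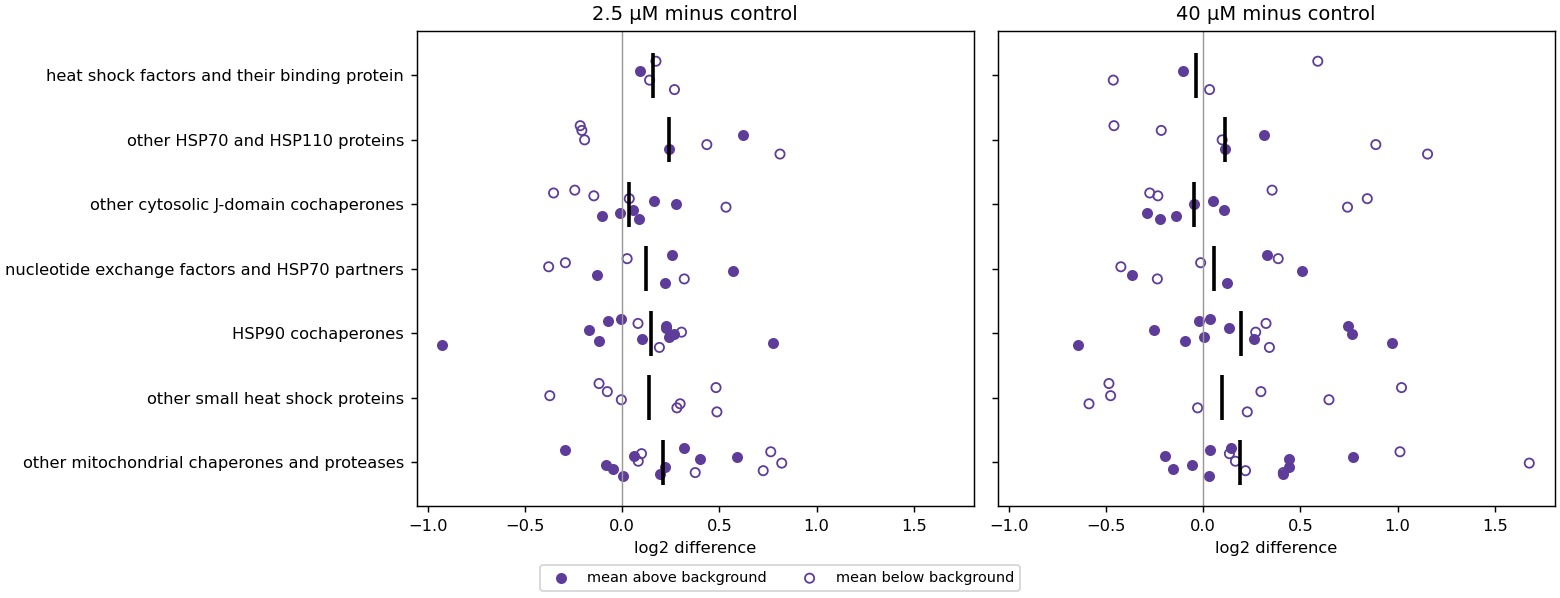
Log2 difference from control of the 68 measured genes of the wider chaperone system, by list, at 2.5 µM (left) and 40 µM (right); filled points have a mean above background, and black bars are list medians. The medians lie between -0.05 and 0.24, with single genes reaching from -0.93 to 1.68.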

How the data were processed

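The table deposited by the authors holds log2 expression values of 6 arrays. RMA is named in the submitters' processing notes, beside Transcriptome Analysis Console and Affymetrix Expression Console, with no version. Per the deposited values, up to 269 features per array exceed 16, the log2 maximum of a 16-bit image. The scale is thus not the plain scanner scale, for a reason unknown here, and folds hold on the deposited scale. Of the heat shock genes, Hspd1 lay above 16 on every array (16.16 to 16.75) and Hsp90aa1 on 40 µM replicate 1 (16.40). The genome build used by the authors is not given in the sources used here. Features with 1 gene symbol (19572 of 28846) gave 19505 genes, by the feature with the highest mean, with no filter on level. Samples were grouped by title. Some description fields contradict the titles.

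All genes were fitted together with limma 3.58.1 in R 4.3.3 (group means of 6 arrays, variance trend, two-sided, Benjamini-Hochberg over all genes, threshold 0.05). With 3 residual degrees of freedom, the procedure was tested on simulated data. Every gene and group had the same spread there, whereas the median gap between arrays of a group here ran from 0.12 to 0.37. The simulation therefore cannot show how the fit behaves at such unequal spread. Background is the 95th percentile of 5222 negative control features. Precision is limited by the number of arrays.

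The members and lists were chosen with earlier results of these data known. All members were named, and of each list the gene with the smallest unadjusted p in each direction when that was below 0.05 and its mean above background. Exceptions are marked in the text. Alternatives were another normalization, filters, array weights, blocks and arrays left out.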

Additional observations from a re-analysis of the deposited data

How the results depend on the processing

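The 15 alternatives gave 342 values for single genes, of which 299 kept their direction and their side of the threshold, 12 passed it in the same direction and 31 turned their sign. Many of these values could not turn. The replicate block, the fit without variance trend, the level filters, the mean of clusters and array weights left each difference unchanged. So did leaving out an array of the group not compared. Causes were not tested. With the replicate block, 0 genes and 0 chaperones passed in each comparison, and the medians stayed at 0.19, 0.14 and 0.08. Same-numbered arrays correlated at -0.0045, -0.012 and 0.386 in their deviations from the group means, and the numbers were not taken as pairs. The filter on background left only 4 of the 8 genes.

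Without both arrays low in spiked-in controls, 3749 genes and 3 chaperones passed for 40 µM against control, 3991 and 5 for 2.5 µM against control, and 2965 and 3 between the doses. The median between the doses was then -0.048. With these arrays as a block, 1 gene passed between the doses, and the median for 40 µM against control was 0.066. Leaving out each array in turn gave 0 to 2235 genes, 0 to 3 chaperones and medians from 0.084 to 0.46 for 40 µM, and medians from 0.068 to 0.18 for 2.5 µM. Signs turned without both low arrays for 40 µM against control in Hsp90aa1 (-0.35), Hspa1a (0.10), Hspb1 (0.063), Hspd1 (-0.094) and Hspe1 (-0.33), for 2.5 µM in Hspa1a (0.065), and between the doses in Dnajb1 (-0.23), Hsp90aa1 (-0.19) and Hsph1 (-0.14). With the low arrays as a block they turned for 40 µM in Hsp90aa1 (-0.19), Hspa1a (0.093) and Hspe1 (-0.28), and for 2.5 µM in Hspa1a (0.077). Quantile normalization turned Dnajb1 (-0.064) and Hspa1a (-0.0092) between the doses.

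Where leaving out 1 array turned a sign, the values for 40 µM against control ran from -0.35 to 0.44 for Hsp90aa1, from -0.19 to 0.10 for Hspa1a, from -0.69 to 0.063 for Hspb1, from -0.094 to 0.49 for Hspd1 and from -0.33 to 0.71 for Hspe1. For 2.5 µM, Hspa1a ran from -0.18 to 0.065. Between the doses, the ranges were -0.24 to 0.31 for Dnajb1, -0.26 to 0.52 for Hsp90aa1, -0.13 to 0.16 for Hspa1a, -0.13 to 0.19 for Hspa1b, -0.049 to 0.70 for Hspb1, -0.44 to 0.15 for Hspd1 and -0.045 to 0.62 for Hsph1.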
